A study of Mus musculus with 10 samples.

Results

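The cytosolic ribosomal protein genes are the protein-coding genes that encode the structural proteins of the cytoplasmic ribosome. They were taken by symbol from the protein-coding genes of GENCODE M21. The symbol had to be Rpl or Rps followed by a number and then only by digits or the letters a, l, x, y or p. Rpsa, Rplp0, Rplp1 and Rplp2 were added. The Rps6k kinases and symbols with a hyphen, such as Rpl10-ps3, were left out. The rule used no expression value and gave 84 of the 54752 genes listed for every library, or 84 of 21921 named protein-coding genes. Expression had been measured by messenger RNA sequencing on a NextSeq 500 in primary mouse embryonic fibroblasts at passage 2. The embryos were at embryonic day 13.5 and came from 129S4/SvJaeJ mothers and CBA/CaJ × C57BL/6J fathers that carried an Oct4-GFP transgenic allele. In every group, D0 included, the cells had first been exposed for 48 hours to retroviruses for Jdp2, Sall4, Esrrb and Glis1. They were then kept in iCD3 induction medium for 0 hours (D0), or for 1, 3, 5 or 7 days (D1, D3, D5 and D7), with 2 libraries per day from 2 experiments that the series text calls independent. No library of uninfected fibroblasts was analysed here, so all changes are measured from cells that already carried the viruses.

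The ribosome reads messenger RNA into protein with a small subunit, which decodes the message, and a large subunit, which joins the amino acids. Each ribosome holds about one copy of most of its proteins, and their genes are among the most strongly transcribed in growing cells. In mammals most of their messenger RNAs begin with a run of pyrimidines (C or T bases) at the cap, the 5′ terminal oligopyrimidine or TOP motif, through which mTOR signalling adjusts their translation. The family has also left many processed pseudogenes in the genome, and a few members have an expressed paralogue: Rpl10l and Rpl39l are known from male germ cells and Rpl3l from striated muscle.

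Library totals ran from 2176457 to 4335931 estimated counts in replicate 1 and from 1329377 to 1492105 in replicate 2, and the mean fragment length from 136 to 159 bases and from 199 to 204 bases. Of the 84 genes, 83 passed the filter on low counts and were tested among 12752 genes; Rpl3l did not pass. The fibroblast label was matched by the markers: 13 fibroblast genes summed to 11910 and 13180 counts per 1000000 of the scaled library total (CPM) at D0, where the 12 pluripotent stem cell genes summed to 25.8 and 27.5. At D7 the fibroblast genes summed to 638 and 1023 CPM, and the pluripotency genes to 2026 and 1545. The 10 macrophage markers summed to 37.4 and 20.8 CPM at D0 and 12.7 and 8.48 at D7, and the 8 endothelial markers to 23.3 and 28.2 and to 130 and 143 CPM. The 7 neural markers summed to 49.1 and 60.9 CPM at D0 and 116 and 97.2 at D7, while the 7 keratinocyte markers stayed at or under 15.5 CPM in every library. The part of these cell types in the results was not tested. These are bulk libraries, in which fewer cells of a type and less RNA per cell cannot be told apart.

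As a group the ribosomal protein genes took a larger share of the messenger RNA at D7 than at D0. They held 4.36% and 3.92% of the estimated counts in D0 replicates 1 and 2, and 5.93% and 6.22% at D7. Both D7 libraries lay above both D0 libraries, with means of 6.08% ± 0.208 (SD, n = 2) and 4.14% ± 0.311 (SD, n = 2). With 2 libraries per day the smallest p that the exact two-sided permutation test allows is 0.333, which was the p here. In the deposited TPM values, transcripts per 1000000 after division by transcript length, the share was 12.3% and 12.0% at D0 and 15.2% and 16.5% at D7. The days between did not form a steady rise. The share was 4.85% and 4.64% at D1, 6.54% and 4.65% at D3, and 5.22% and 7.45% at D5. At D3 replicate 1 was the high library and at D5 replicate 2 was, and the values of D3 and D5 overlap. D7 replicate 1 stood apart in its counts at 1 annotated ribosomal RNA gene, 0.8% of its total against 0.0427% to 0.14% in the other 9 libraries, and its mean fragment length of 136 bases was the shortest, from 159 bases in D0 replicate 1. The fragment length was 204 bases in D0 replicate 2 and 201 bases in D7 replicate 2, where the share was 3.92% and 6.22%. The part of fragment length in the share was not tested.

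**Figure D1:**
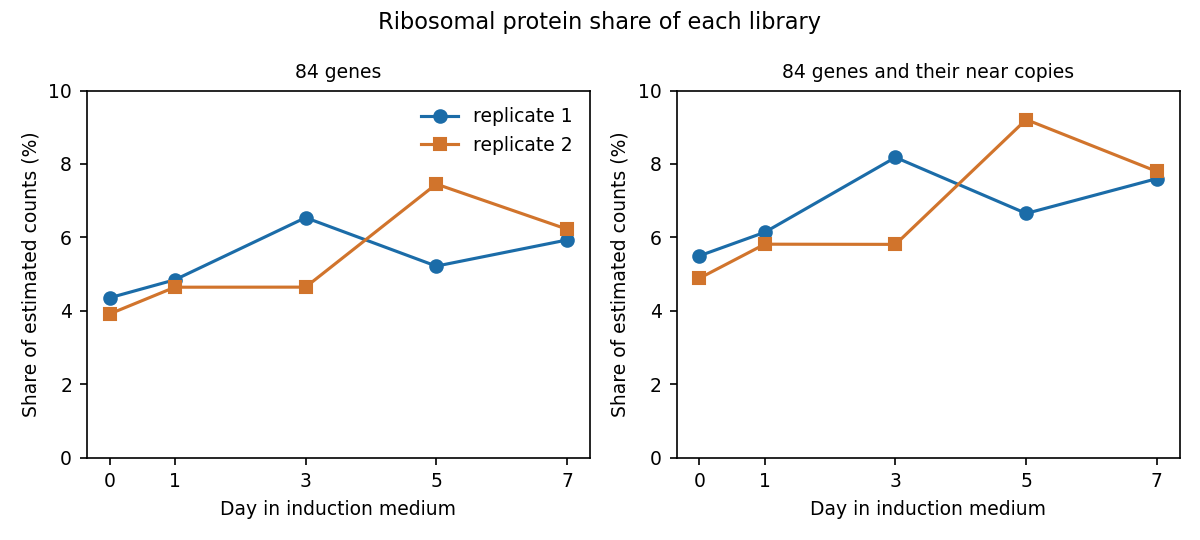
Share of each library's estimated counts (%, y axis) at the 84 ribosomal protein genes (left) and at these genes with their near copies (right) by day (x axis), 1 point per library. The D7 libraries, at 5.93% and 6.22% for the 84 genes, lie above the D0 libraries, at 4.36% and 3.92%, while the replicates part at D3 and D5.

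The difference was shared by most members and small in each. Between D0 and D7 the median log2 change of the 83 tested genes was 0.38, or 1.3-fold, with quartiles of 0.26 and 0.46, and the fitted change was positive in 80 of them. Over all 12752 tested genes the median was 0.06, the quartiles were -0.51 and 0.69, and 52.8% had a positive change. Measured within each replicate number, the members' median was 0.31 in replicate 1 and 0.44 in replicate 2, and 75 of 83 were higher in both, against 42.4% of all tested genes. Both D7 libraries lay above both D0 libraries for 51 of 83 members, against 34% of all tested genes. The members moved together within a library, so these counts are not 83 separate observations. The members' median, as log2 from the D0 mean, was 0.54 and 0.01 in the D3 libraries. It was 0.18 and 0.73 in the D5 libraries. Only 2 members passed the test between D0 and D7 (edgeR quasi-likelihood F test, Benjamini-Hochberg adjusted p under 0.05): the paralogues Rpl10l and Rpl39l, both higher. Among all tested genes 17.8% were called, 9.15% higher, so the family held fewer calls than the background. In simulated data the same test recovered 3% of genes with a true log2 change of 1, and the members' median was 0.38. The absence of a call therefore does not show that a member was unchanged. With the replicate number as a block, 3 members were called, where 28.5% of all genes were, and the added gene was Rpl5. An unadjusted p under 0.05 was reached by 13 of 83 members with the block and by 3 without it. Of all 12752 tested genes 4993 reached it with the block and 3965 without. The test across all 5 days called the same count of 2 members, against 19.1% of all genes, and 3 with the block, against 34.9%.

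**Figure D2:**
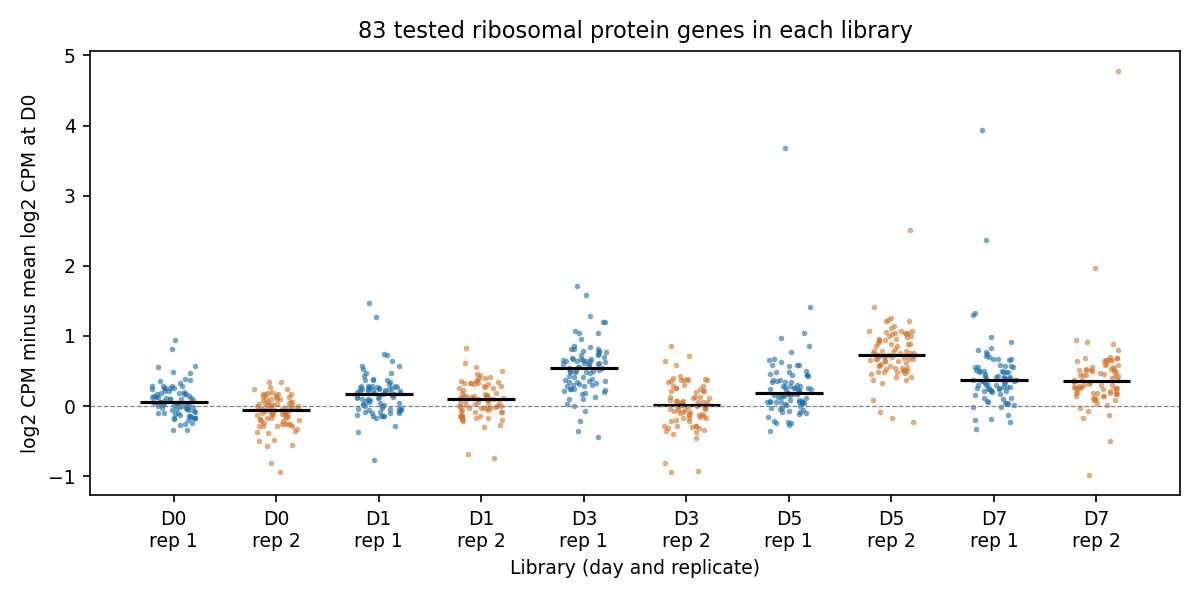
Level of each of the 83 tested ribosomal protein genes (points) in each library (x axis), as log2 CPM minus the gene's mean log2 CPM over the D0 libraries (y axis), with the median as a bar. Medians stand at 0.54 in D3 replicate 1 and 0.73 in D5 replicate 2 and at 0.37 and 0.36 at D7, and the highest points at D5 and D7 are Rpl10l.

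The 2 subunits had similar medians. For the 46 large subunit genes other than paralogues the median log2 change from D0 to D7 was 0.37, with 45 positive. For the 31 small subunit genes it was 0.39, with 30 positive. None of these 77 genes was called by edgeR, against 17.8% of all tested genes, and 1 had an unadjusted p under 0.05 (Rps20). Rpl5 alone was called with the block, against 28.5% of all tested genes. Large subunit genes held 56.5% of the members' TPM in D0 replicate 1 and 57.0% in D7 replicate 1, and 59.7% and 59.2% in replicate 2.

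Per length, the most abundant members at D0 were Rplp1, a protein of the large subunit stalk that recruits translation factors, then Rpl41, the smallest ribosomal protein, and Rps24 of the small subunit. Their mean levels were 5272, 4786 and 3788 TPM. Rplp1 measured 1183 and 1173 CPM in the D0 libraries and 1228 and 1408 CPM at D7, and its log2 change was 0.16 ± 0.34 (SE; adjusted p = 0.798). Of its stalk partners, Rplp0, the base of the stalk, measured 1564 and 1807 CPM at D0 and 1727 and 2313 CPM at D7; the days overlap, with log2 changes of 0.14 within replicate 1 and 0.36 within replicate 2. Rplp2, which pairs with Rplp1, measured 460 and 455 CPM at D0 and 615 and 602 CPM at D7, and the days do not overlap; its log2 change of 0.41 ± 0.35 (SE) had an adjusted p of 0.473. None of the 3 stalk genes passed the test.

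Rpl5 and Rpl11 encode the large subunit proteins that bind 5S ribosomal RNA and that also hold back Mdm2 when ribosome assembly fails. Rpl11 measured 404 and 442 CPM at D0 and 582 and 643 CPM at D7, with a log2 change of 0.54 ± 0.32 (SE; adjusted p = 0.291). Rpl5 measured 64.1 and 32.7 CPM at D0, 128 and 82.0 at D1, 152 and 75.5 at D3, 95.5 and 97.5 at D5, and 114 and 67.9 at D7. Every later library thus lay above both D0 libraries. Its log2 change was 1.11 ± 0.44 (SE) between D0 and D1 (edgeR adjusted p = 0.218; 0.0220 with the replicate block) and 0.90 ± 0.44 between D0 and D7 (edgeR adjusted p = 0.193; 0.0277 with the block). The processed pseudogene Gm15500, a near copy of Rpl5, held most of the reads of the family, and with near copies added the log2 change was 0.07 between D0 and D1 and 0.47 between D0 and D7.

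After Rpl5, Rpl36a and Rps20 had the largest positive changes among genes outside the paralogues, and Rps20 was singled out after its values were seen. Rps20 of the small subunit measured 441 and 351 CPM at D0 and 686 and 620 CPM at D7, a log2 change of 0.72 ± 0.31 (SE; edgeR adjusted p = 0.144). Rpl36a of the large subunit measured 208 and 162 CPM at D0 and 363 and 270 CPM at D7, a change of 0.77 ± 0.39 (adjusted p = 0.203). At the other end, outside the paralogues and after Rpl10 at -0.07 (0.07 with near copies added), stood Rps2 and Rpsa of the small subunit. Rps2 measured 1954 and 2340 CPM at D0 and 1854 and 2433 CPM at D7, and its log2 change was -0.00 ± 0.31 (SE). Rpsa, which also serves as a laminin receptor, measured 2319 and 2405 CPM at D0 and 2171 and 2686 CPM at D7. For both genes the D0 and D7 libraries overlap, and the change within replicates was negative in replicate 1 (-0.08 for Rps2 and -0.09 for Rpsa) and positive in replicate 2 (0.06 and 0.16). Rps19, a small subunit gene mutated in Diamond-Blackfan anaemia, measured 570 and 385 CPM at D0 and 592 and 499 CPM at D7; the days overlap, with log2 changes of 0.05 within replicate 1 and 0.37 within replicate 2.

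Rps6, the small subunit protein that the S6 kinases phosphorylate, measured 607 and 569 CPM at D0, 911 and 521 CPM at D3, 687 and 1099 CPM at D5, and 697 and 578 CPM at D7. Its high libraries, D3 replicate 1 and D5 replicate 2, were the high libraries of the whole family. Rpl38, a large subunit gene known for a role in the translation of Hox messages, measured 218 and 203 CPM at D0 and 271 and 251 CPM at D7, and its days do not overlap. Rps27a, which is made as a fusion with ubiquitin, measured 596 and 274 CPM at D0 and 676 and 408 CPM at D7, so that the gap between replicates exceeded the gap between days, while the log2 change was 0.18 within replicate 1 and 0.57 within replicate 2. None of these 3 genes passed the test.

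The steps between neighbouring days gave no call by edgeR among the 83 members, apart from the block. From D0 to D1 the median log2 change was 0.11, with 69 positive (50.9% of all tested genes), and medians of 0.09 and 0.16 in replicates 1 and 2. No member was called against 4.52% of all tested genes; 1 had an unadjusted p under 0.05 (Rpl5), DESeq2 and limma-voom called none, and the block called 1, against 10.6% of all genes. From D1 to D3 the median was 0.16, but it was 0.38 in replicate 1 and -0.09 in replicate 2. No member was called by edgeR, DESeq2 or limma-voom or had an unadjusted p under 0.05, and edgeR called 0.0549% of all genes. Without D3 replicate 1 the median turned to -0.08.

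From D3 to D5 the median was 0.19, at -0.33 in replicate 1 and 0.70 in replicate 2, where all 83 members were higher. Without D5 replicate 2 the median turned to -0.10, and without D3 replicate 2 to -0.06. No member was called by edgeR or limma-voom, against 0.0706% of all genes; 3 had an unadjusted p under 0.05 (Rpl10l, Rpl39l and Rpl10), and Rpl10l alone was called by DESeq2 and by edgeR with the block, against 3.3% of all genes with the block. From D5 to D7 the median was -0.14, at 0.17 in replicate 1 and -0.40 in replicate 2, and 0.15 without D5 replicate 2. No member was called by edgeR, DESeq2 or limma-voom, against 0% of all genes by edgeR, and 2 had an unadjusted p under 0.05 (Rpl12 and Rpl39l). In each step after D1 the members' median thus had opposite signs in the 2 replicates, while between D0 and D7 it was positive in both.

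**Figure D3:**
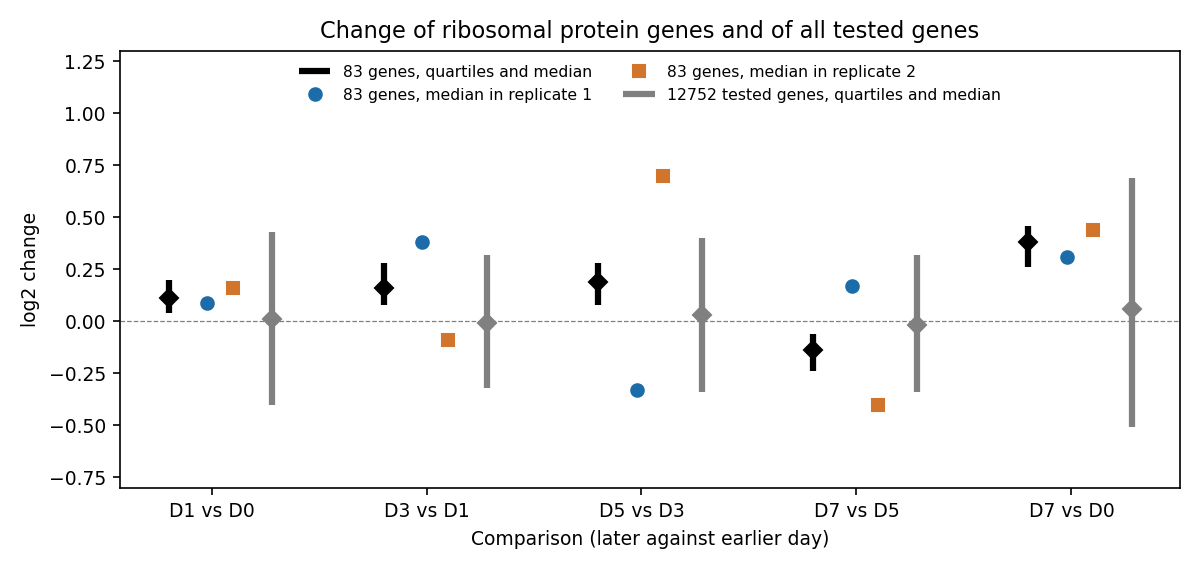
Change (log2, y axis) in each comparison (x axis) for the 83 ribosomal protein genes (black: quartiles and median; blue circles and orange squares: medians within replicates 1 and 2) and for all 12752 tested genes (grey). The replicate medians fall on opposite sides of 0 from D1 to D3, from D3 to D5 and from D5 to D7, and on the same side from D0 to D1 and from D0 to D7.

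The largest single changes in these steps were not called unless stated. From D0 to D1, Rpl22l1 and Rpl36a followed Rpl5 with log2 changes of 0.61 and 0.41, and Rpl10, Rps27l and Rps2 were lowest at -0.33, -0.27 and -0.19. From D1 to D3, Rpl37a, Rpl36 and Rps27 were highest at 0.55, 0.48 and 0.46, and Rpl39l, Rpl7a and Rpl27 were lowest at -0.79, -0.16 and -0.15. From D3 to D5, Rpl39l and Rpl10 followed Rpl10l with 1.75 and 0.98, and Rpl5, Rpl22l1 and Rpl12 were lowest at -0.25, -0.16 and -0.15. From D5 to D7, Rpl39l, Rpl10l and Rpl12 were highest at 1.36, 1.20 and 0.87, and Rpl10, Rps6 and Rps27l lowest at -0.62, -0.48 and -0.45. Several of these changes were smaller or of the other sign with the near copies of each gene added. From D0 to D1, Rpl10 was then at -0.09 and Rpl36a at 0.23, and from D1 to D3 Rpl27 was at -0.06. From D3 to D5, Rpl10 was at 0.37, and Rpl5 and Rpl12 turned to 0.26 and 0.23. From D5 to D7, Rpl12 was at -0.01, Rps6 at -0.05 and Rpl10 at -0.27.

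The sequence around the members' start sites was examined for what they have in common. No motif was set against the size of a change. RefSeq promoter windows (GRCm38.p6) were matched by symbol for 64 of the 84 genes, 76 windows in all, so a gene with several windows counts more than once. The windows printed run from 60 bases before to 20 bases after the RefSeq start, 5′ to 3′ on the transcribed strand, and capitals mark runs of at least 8 pyrimidines that reach into the stretch from 10 before to 20 after the start. Rps6, Rpl38, Rpl35, Rps27 and Rplp2 are shown for their pyrimidine runs and Rpsa for the lack of one, and both paralogue pairs that hold the calls are shown for the contrast within a pair.
Rps6 (chr4:86857348-86857427, minus strand): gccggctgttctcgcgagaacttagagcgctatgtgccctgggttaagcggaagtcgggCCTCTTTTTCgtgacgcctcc
Rpl38 (chr11:114668520-114668599, plus strand): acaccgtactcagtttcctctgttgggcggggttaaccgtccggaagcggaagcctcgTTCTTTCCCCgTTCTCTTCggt
Rpl35 (chr2:39005112-39005191, minus strand): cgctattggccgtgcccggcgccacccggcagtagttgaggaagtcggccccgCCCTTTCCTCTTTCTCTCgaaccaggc
Rps27 (chr3:90213629-90213708, minus strand): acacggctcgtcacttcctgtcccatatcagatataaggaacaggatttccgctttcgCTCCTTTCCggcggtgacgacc
Rplp2 (chr7:141447591-141447670, plus strand): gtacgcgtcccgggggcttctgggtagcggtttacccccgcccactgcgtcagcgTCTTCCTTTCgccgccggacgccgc
Rpsa (chr9:120127706-120127785, plus strand): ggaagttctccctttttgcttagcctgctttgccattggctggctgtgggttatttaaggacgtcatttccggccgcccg
Rpl39 (chrX:37085203-37085282, minus strand): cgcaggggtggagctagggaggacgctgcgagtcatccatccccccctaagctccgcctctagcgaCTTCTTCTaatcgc
Rpl39l (chr16:10170168-10170247, plus strand): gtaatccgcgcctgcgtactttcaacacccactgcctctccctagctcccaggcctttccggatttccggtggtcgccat
Rpl10 (chrX:74270756-74270835, plus strand): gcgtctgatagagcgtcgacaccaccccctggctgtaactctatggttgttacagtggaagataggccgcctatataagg
Rpl10l (chr12:66284382-66284461, minus strand): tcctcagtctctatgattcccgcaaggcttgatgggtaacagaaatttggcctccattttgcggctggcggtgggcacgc

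Such a pyrimidine run was found in 31.6% of the 76 member windows and in 11.2% of 20067 windows of other genes. The first 5 transcribed bases were all C or T in 21.1% of member windows and in 3.83% of the others. Within 50 bases on either side of the start, the letters CTTTCC on the transcribed strand were found in 30.3% of member windows against 4.24%, and CTCTTTC, which can overlap it, in 18.4% against 1.24%. CCGGAAG, the letters of an ETS-type site, was found on either strand in 18.4% against 7.09%, and AAGATGG, a core of YY1 sites, on either strand in 10.5% against 2.89%. TATAAA on the transcribed strand was found in 6.58% against 3.63%. Of the 4 genes of the pairs printed, Rpl39 alone has a marked run; Rpl39l has at most 7 pyrimidines in a row there, Rpl10l 5 and Rpl10 3. These matches depend on where RefSeq places the start, and they describe letters, not binding or use.

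Rpl10l and Rpl39l were the members with the largest changes, both late in the course. Rpl10l, on chromosome 12 (66283379 to 66284401, GRCm38), is a single-exon copy of the X-linked Rpl10, with 84.7% identity over 642 coding bases. No count was assigned to Rpl10l in any D0, D1 or D3 library. It reached 40 and 5 estimated counts at D5 and 54 and 33 at D7, or 9.59 and 3.84 CPM and 11.7 and 21.5 CPM. Rpl10l was thus detected in all 4 late libraries and in none of the 6 earlier ones. Against a floor of 3 counts over both D0 libraries it was at least 16.0-fold higher at D7 and at least 9.33-fold higher at D5. The change from D0 to D7 passed the test (edgeR adjusted p = 0.00803), and the ratio of D7 to D5 was 1.72 (95% interval 1.18 to 2.52, counting error only; edgeR adjusted p = 0.826). The change from D3 to D5 did not pass (edgeR adjusted p = 0.132; 0.0399 with the block). Rpl10l passed the filter on low counts only through the late days, and so did Rpl39l.

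Rpl39l, on chromosome 16 (10170226 to 10174911, GRCm38), has 3 exons and is 85.5% identical over 152 aligned coding bases to the X-linked Rpl39. It measured 3.40 and 3.72 CPM at D0, 4.53 and 2.83 at D1, 2.62 and 1.48 at D3, 10.8 and 3.07 at D5, and 21.8 and 16.3 at D7. Both D7 libraries lay above the 8 others. From D0 to D7 its summed counts went from 12 to 126, a ratio of 5.8 per library total (95% interval 3.21 to 11.5, counting error only). The fitted log2 change of 2.42 ± 0.68 (SE) passed the test (edgeR adjusted p = 0.0303). The calls rest on few libraries: without D0 replicate 1 neither gene was called (adjusted p = 0.0592 for Rpl10l and 0.172 for Rpl39l), and Rpl39l also missed the threshold without D0 replicate 2 (0.136), D7 replicate 1 (0.190) or D7 replicate 2 (0.063). A day left with 1 library is assumed there to vary like the other days. Rpl39l further missed the threshold after libraries were thinned to 1 depth (0.0617), and Rpl10l was not tested with a minimum count of 30.

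Per length both paralogues stayed minor partners. Rpl10l reached 20.2 and 37.4 TPM at D7 beside 328 and 280 TPM for Rpl10, or 5.8% and 11.8% of the pair. Most reads of the Rpl10 family were counted at the near copy Rpl10-ps3, and with the near copies of Rpl10 in the sum Rpl10l held 0.851% and 1.74%. Rpl39l reached 55.2 and 38.5 TPM at D7 beside 1380 and 412 TPM for Rpl39, or 3.86% and 8.54% of the pair, from 0.731% and 2.8% at D0. The X-linked partners themselves were not called: the log2 change from D0 to D7 was -0.07 ± 0.37 (SE) for Rpl10 and 0.41 ± 0.82 for Rpl39. A list of 12 germ cell markers included Dazl, Ddx4, Sycp1, Sycp3 and Stra8. It went from a sum of 2.43 and 3.72 CPM at D0 to 175 and 79.6 CPM at D7. Of the list, Prm1, Tnp1 and Pgk2 were at 0 in every library. The pluripotency markers were also higher in sum on D7 than on D0. The part of either in the level of the paralogues was not tested.

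**Figure D4:**
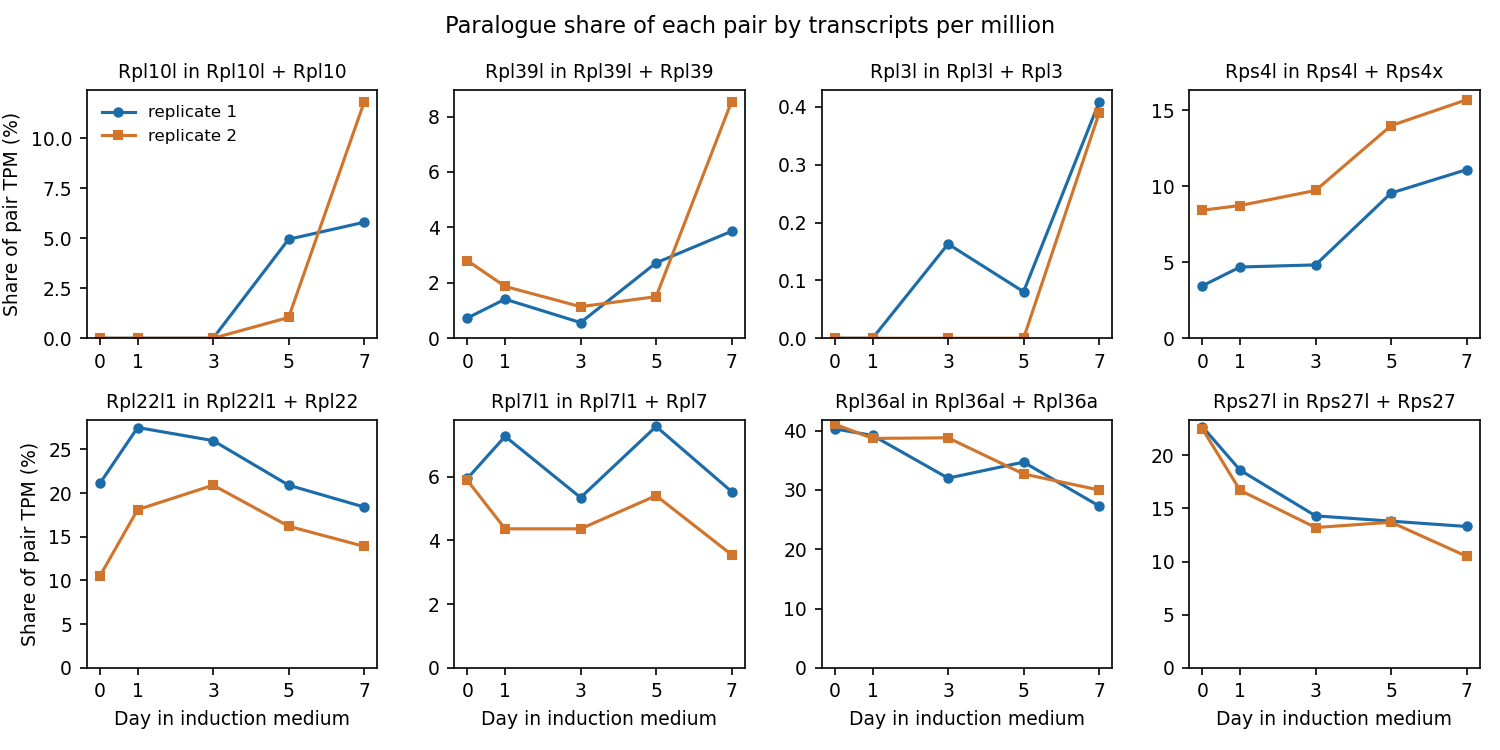
Share of each pair's TPM at the paralogue (%, y axis, own scale in each panel, from 0) by day (x axis), 1 line per replicate. Near copies are left out of the pair sums. Rpl10l and Rpl39l reach 5.8% and 11.8% and 3.86% and 8.54% at D7, and Rps27l goes from 22.7% and 22.5% at D0 to 13.3% and 10.5%.

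Rpl3l, the muscle paralogue of Rpl3 with 74.4% identity over 1189 aligned coding bases, was near the limit of detection. It had 1 count in D3 replicate 1 and in D5 replicate 1, 8 and 2 counts in the D7 libraries, and none elsewhere, so D7 was at least 1.84-fold above D0. It held 0.408% and 0.389% of its pair's TPM at D7. Rpl3 itself held 26.5% of its family's counts, and with near copies in the sum Rpl3l held 0.089% and 0.0952%. The 8 skeletal muscle markers summed to 255 and 358 CPM at D0 and 134 and 95.3 CPM at D7.

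Rps4l, a retrocopy of the X-linked Rps4x, is annotated as a transcribed processed pseudogene and so lies outside the 84 genes, on chromosome 6 (148354656 to 148355598, GRCm38). It measured 38.4 and 66.1 CPM at D0, 52.0 and 74.2 at D1, 66.0 and 74.0 at D3, 126 and 201 at D5, and 174 and 202 at D7. Its log2 change of 1.86 ± 0.36 (SE) from D0 to D7 passed the test (edgeR adjusted p = 0.00542; 0.069 without D0 replicate 1). Rps4l thus rose between D0 and D7, as Rpl10l and Rpl39l did, from 3.45% and 8.43% of the TPM of the pair with Rps4x to 11.1% and 15.7%. Rps4x measured 1116 and 749 CPM at D0 and 1450 and 1131 CPM at D7 (log2 change 0.47 ± 0.35, edgeR adjusted p = 0.418).

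The other paralogues were not called. Rps27l, a target of p53 and a paralogue of Rps27, had the most negative change of the 83 members from D0 to D7: it measured 221 and 111 CPM at D0 and 125 and 79.0 CPM at D7 (log2 change -0.70 ± 0.45, SE, edgeR adjusted p = 0.336). Rps27 measured 410 and 184 CPM and 468 and 334 CPM on those days, and the Rps27l share of the pair's TPM was lower on D7 than on D0 in both replicates. Rpl36al went from 40.3% and 41.1% of the pair with Rpl36a to 27.3% and 30%, with a log2 change of 0.01 ± 0.31 for Rpl36al itself. With near copies in the sum Rpl36al held 24.9% and 20% at D0 and 18.8% and 16.4% at D7. Rpl22l1 held 21.1% and 10.5% of the pair with Rpl22 at D0, 27.5% and 18.1% at D1, and 18.4% and 13.9% at D7. Rpl7l1 held 5.94% and 5.88% of the pair with Rpl7 at D0 and 5.53% and 3.55% at D7; its coding sequence gave no alignment to Rpl7 at the settings used. The shares of pairs were not tested.

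Counting at this family is complicated by its copies. A search of the M21 transcripts found 1082 genes with at least 90% identity to a member over at least 100 bases and 50% of the copy's length, of which 606 had counts and 14 were annotated as protein-coding. Of the 84 members, 80 had such a near copy, up to 86 for Rpl7a. For 40 of the 80 the gene itself held at least 99% of the family's counts, and for 19 it held under 60%. Rps12 held 3.53%, Rpl12 6.27%, Rpl5 8.46% and Rpl10 13.8% of theirs, the rest falling mostly on Rps12-ps3, Gm10275, Gm15500 and Rpl10-ps3. Of these copies, Rps12-ps3 and Rpl10-ps3 are annotated as protein-coding but lie outside the symbol rule. Levels of these genes are uncertain, since reads shared by a gene and its copy are divided by an estimate.

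**Figure D5:**
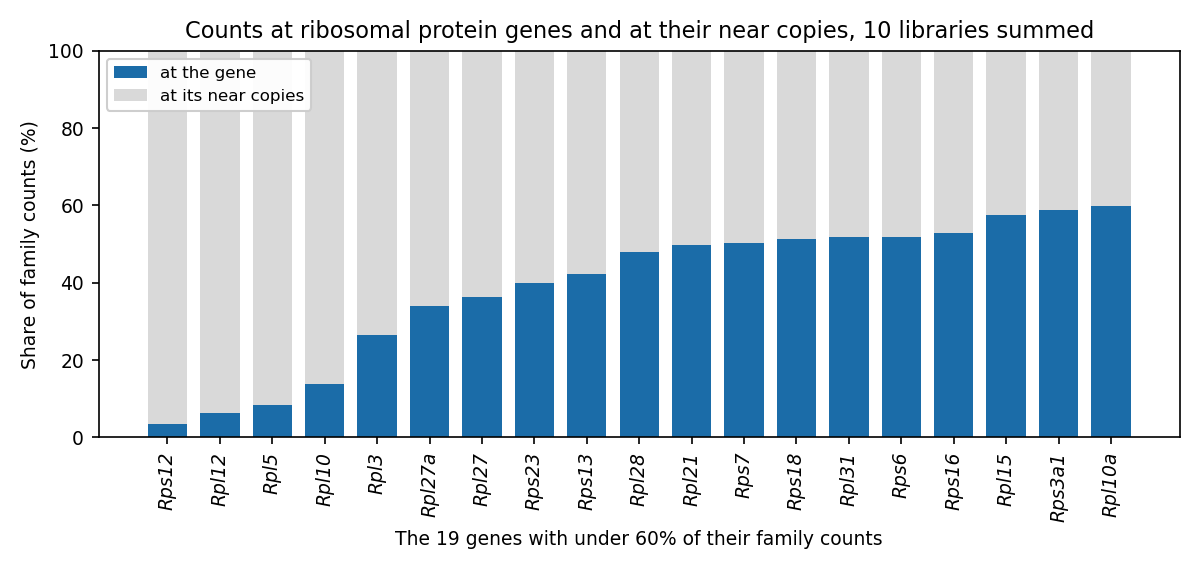
Share of the family's estimated counts (%, y axis, 10 libraries summed) at the gene (blue) and at its near copies (grey) for the 19 ribosomal protein genes (x axis) that held under 60%. Rps12, Rpl12, Rpl5 and Rpl10 hold 3.53%, 6.27%, 8.46% and 13.8%.

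The shift from D0 to D7 was measured with and without the copies. For the 47 tested members with at least 95% of their family's counts, or with no near copy, the median log2 change from D0 to D7 was 0.39, with 46 positive. For the 19 with under 60% it was 0.31, with 18 positive. With near copies added to each member the median over 83 families was 0.38, and 82 were positive. The genes and copies together held 5.5% and 4.89% of the counts at D0 and 7.6% and 7.8% at D7. Of 58 near copies tested on their own, 47 had a positive change, against 52.8% of all tested genes, and the median was 0.35. The copies share reads with the members, and some, such as Gm13841 and Gm8210, had the same values in every library. The 58 are therefore not separate observations. EdgeR called none of them (7 at an unadjusted p under 0.05, 4 called by DESeq2, 0 by limma-voom and 9 with the block). Among all tested genes 17.8% were called by edgeR and 28.5% with the block. Annotated ribosomal protein pseudogenes named with a -ps suffix, 294 in all, held 0.41% and 0.382% of the counts at D0 and 0.653% and 0.637% at D7.

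Single genes parted by replicate, and the examples were picked after their values were seen. Rps12l1 measured 148 to 238 CPM in the replicate 1 libraries and 0 in every replicate 2 library. Rpl14-ps1 measured 0 at D0 and 154 CPM at D7 in replicate 1 and 0 throughout replicate 2. Among the members, Rpl39 stood 1.64 log2 units higher in replicate 1 than in replicate 2 on average, with 324 and 87.7 CPM at D0 and 426 and 119 CPM at D7, and Rpl28 stood 0.77 units lower. In all, 7 members were higher and 8 lower in replicate 1 on each of the 5 days. Fragment length and depth differ between the replicates in the same way on every day. The labels' protocol names 2 library kits, from Vazyme and Illumina, and 2 sequencing read lengths without assigning them to libraries. A difference of kit, fragment length or depth between the replicates and a difference between the experiments themselves cannot be told apart.

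Genes that work with the family were described from lists by function, beside the members' median of 0.38 from D0 to D7. Of 62 genes for ribosomal RNA synthesis and ribosome assembly, 1 was called between D0 and D7, Polr1c (higher, log2 change 1.06 ± 0.31, SE, edgeR adjusted p = 0.0352), a subunit of RNA polymerases I and III. Polr1c was called in 20 of 24 alternative settings (adjusted p 0.0134 to 0.199) and was lost without either D0 or either D7 library. With the block 4 genes of the list were called higher (Polr1c, Dkc1, Npm1 and Utp14a) and 1 lower (Rrp12). Among all tested genes 17.8% were called by edgeR and 28.5% with the block. The list's median was 0.11, with 40 positive, 0.25 in replicate 1 and -0.02 in replicate 2. It was 0.30 from D0 to D1, with 49 of 62 positive, where the members' median was 0.11. None was called by edgeR (6 at an unadjusted p under 0.05, 1 by DESeq2, 0 by limma-voom, 3 with the block). Over that step edgeR called 4.52% of all tested genes, and 10.6% with the block. From D5 to D7 the list's median was -0.38, with 4 of 62 positive. None was called by edgeR, DESeq2 or limma-voom (7 at an unadjusted p under 0.05), against 0% of all genes by edgeR.

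Of 78 mitochondrial ribosomal protein genes, which build the separate ribosome of mitochondria, 1 was called higher between D0 and D7, Mrpl15 (log2 change 1.06 ± 0.31, edgeR adjusted p = 0.0352), and 1 lower, Mrps23 (-1.06 ± 0.29, edgeR adjusted p = 0.0296). Mrpl15 was called in 20 and Mrps23 in 13 of 24 alternative settings, and both were lost without any one D0 or D7 library. The list's median was 0.02, with 41 positive, and -0.00 and 0.01 in replicates 1 and 2. Its steps resembled those of the assembly list. The median was 0.32 from D0 to D1, with 63 of 78 positive, and -0.39 from D5 to D7, with 3 positive. EdgeR called none in either step (5 and 10 at an unadjusted p under 0.05), and the block called 2 from D0 to D1. Over that step edgeR called 4.52% of all tested genes, and 10.6% with the block. From D5 to D7 edgeR called 0% of all tested genes. Of 22 translation factors and other genes with TOP-type messages, 19 had a positive change from D0 to D7, with a median of 0.14, and 1 was called, lower: Vim, which encodes the intermediate filament vimentin of mesenchymal cells (log2 change -2.37 ± 0.47, edgeR adjusted p = 0.00607; 0.0674 without D7 replicate 1). With the block Eif4b, a translation initiation factor, was also called, higher (log2 change 0.77, adjusted p = 0.0206). Beside both of these lists, 17.8% of all tested genes were called by edgeR and 28.5% with the block. Fau, whose product is cleaved into a ribosomal protein and a ubiquitin-type part and which the symbol rule leaves out, had a log2 change of 0.26 ± 0.33 (SE).

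Among 22 regulators of ribosomal protein synthesis 2 were called higher and 1 lower between D0 and D7, and the median was -0.02; among all tested genes 17.8% were called. With the block Akt1s1, an inhibitory partner of mTOR, was also called, lower (log2 change -0.85, adjusted p = 0.0316), where 28.5% of all tested genes were called. Mycl measured 1.46 and 1.49 CPM at D0 and 14.5 and 20.9 CPM at D7 (log2 change 3.53 ± 0.67, SE, edgeR adjusted p = 0.00483; 0.055 without D0 replicate 1). Eif4ebp2, a repressor of cap-dependent translation under mTOR, measured 133 and 169 CPM and 304 and 280 CPM (0.95 ± 0.27, edgeR adjusted p = 0.0341). Myc, a transcription factor that drives ribosome production, measured 74.8 and 114 CPM at D0 and 30.02 and 30.67 CPM at D7, and its log2 change of -1.63 ± 0.51 passed the test (edgeR adjusted p = 0.0483; 0.00303 with the block). Over 24 alternative settings Eif4ebp2 was called in 16 and Myc in 8, with adjusted p up to 0.234 and 0.248, and both were lost without any one D0 or D7 library. Mycn, Larp1, which binds TOP messages, and Mtor were not called, at -0.37 ± 0.32, 0.30 ± 0.30 and 0.30 ± 0.33.

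The members share features that the symbol rule did not use. Their median transcript length was 692 bases against 2548 for the 12060 tested protein-coding genes, members included, and their median number of exons, in the transcript with the most, 5 against 9. A small nucleolar RNA gene lay within 30 of the 84 members (35.7%) and within 205 of the 12060 (1.7%). The members lay on 19 chromosomes, 14 of them on chromosome 7, 8 on chromosome 17 and 4 on the X chromosome, and Rpl10l alone had a single exon. These are annotations of M21 and say nothing about a cause of the shift.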

How the data were processed

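Expected counts per gene were estimated by the authors with RSEM after Bowtie2 alignment to mm10, per the submitters' processing notes and the file headers; their versions, the annotation release and the strand setting were not given in the sources used. The deposited TPM values were used for levels per length, while FPKM, also deposited by the authors, entered no result. Gene IDs were named from GENCODE M21 (54723 of 54752 matched; the other 29 held at most 0.00179% of counts). Estimated counts were rounded, genes with low counts were left out (edgeR filterByExpr, minimum count 10), libraries were scaled by TMM, and edgeR 4.0.16 (R 4.3.3) fitted 1 term per day over all 10 libraries with the quasi-likelihood F test. P-values were adjusted by Benjamini-Hochberg over all 12752 tested genes, with a threshold of 0.05; DESeq2 1.42.0 and limma 3.58.1 gave alternatives. CPM values are counts per 1000000 of the scaled library total. Log2 CPM per library used a prior count of 2. The SE was obtained from the log2 change and its F statistic, as the change over root F.

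Same-numbered libraries deviated together. Over all 10 pairs of days the deviations from the day means correlated at 0.273 to 0.436 over the tested genes. Over the 83 members the correlations were 0.617 to 0.89. The fit reported leaves this pairing out, so the replicate block is given where it changed a call. The series text calls the experiments independent without naming the cultures, so p-values measure the spread between libraries, which may be technical. Replicates of a day differed by far more than counting noise (chi-square per gene 6.92 to 22.5). Near copies were found with BLAST 2.17.0 on M21 transcripts, and promoter windows and starts are RefSeq's (GRCm38.p6). The fit was tested on data simulated from the mean levels and the spread it had estimated, with 200 of 12752 genes changed at D7. It recovered 60% of genes with a true log2 change of 2 and 3% of those with 1, and made 1 false call. The members and lists were chosen with earlier results of these data known. Named genes are the paralogue pairs, stalk genes, Rpsa, Rps6, Rpl5, Rpl11, Rps19, Rpl38 and Rps27a, the 3 largest changes each way per comparison, the 3 highest and lowest by TPM at D0, all called members, and in other lists the 3 largest called each way plus Fau, Myc, Mycn, Larp1 and Mtor. Intervals and floors cover counting error only. Some genes covered by these rules are not reported here.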

Additional observations from a re-analysis of the deposited data

How the results depend on the processing

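The number of ribosomal protein genes called and their median log2 change were recomputed under 24 alternatives for each comparison. Between D0 and D7 the median of 0.38 became 0.50 with upper-quartile scaling, 0.58 with library totals only and 0.47 with a minimum count of 30, and ran from 0.34 to 0.44 with 1 library left out. The first 2 scalings moved the median of all tested genes from 0.06 to 0.19 and 0.27, and the members' lead over it stayed at 0.32 and 0.31 (0.32 in the fit reported), but was 0.25 without the filter and 0.20 without D0 replicate 2. Library totals also moved the share of higher calls among all called genes from 51.3% to 63.7%. Called members between D0 and D7 numbered 2, against 1 with a minimum count of 30, 1 after thinning, 4 with near copies added and the replicate block, 3 with the replicate block alone, and 0 to 2 with 1 library left out; on any day there were 2, against 1 with a minimum count of 30, 1 with log2(TPM + 0.1), 1 after thinning and 1 to 3 with 1 library left out. Fewer genes are tested with the higher minimum; for the other changes the cause was not tested. Near copies were added after seeing the data. For D0 to D1 the median of 0.11 became 0.20 with library totals and ran from 0.05 to 0.21 with 1 library left out, and the replicate block called 1 member. For D1 to D3 it ran from -0.08 to 0.39. For D3 to D5 it ran from -0.10 to 0.48, with -0.06 without D3 replicate 2, and 1 member was called without the filter, by DESeq2, with the replicate block, and with near copies added and the replicate block. For D5 to D7 the median of -0.14 turned to 0.06 with log2(TPM + 1) and 0.06 with log2(TPM + 0.1), and ran from -0.34 to 0.15 with 1 library left out. Between D0 and D7 the replicate block changed the call of Rpl5 and, with near copies, of Rpl3 (adjusted p = 0.0436). Of 3067 values for single genes, 3054 kept their direction or stayed uncalled, 257 of these uncalled with the opposite sign; 6 lost and 7 gained a call. At this depth 3 counts stood for 0.692 to 2.26 CPM, which limits Rpl10l, Rpl39l and Rpl3l.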
